A study of Mus musculus with 6 samples.

Results

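The genes described here are 10 calcium handling genes of kidney ECs: the pumps Atp2a2, Atp2a3, Atp2b1 and Atp2b4, the release channels Itpr1, Itpr2 and Itpr3, the store sensor Stim1 with its channel Orai1, and the entry channel Trpv4. They were found by symbol among the 55401 genes of the count table, and all 10 were among the 18438 genes that passed the filter on low counts. They were chosen with their genotype difference already known, for the contrast of Atp2a3 with the other pumps, so every value of RbpjΔEC against CTRL given for them is a description and carries no test of its own. ECs, sorted for CD31 and against CD45, came from the kidneys of male mice, with 3 libraries per group. The study's text calls the libraries of a group biological replicates, and p-values measure the spread between them. All 6 mice carried Rbpj f/f, the floxed gene of the DNA-binding partner of activated Notch, and all received 1.5 mg tamoxifen 5 times at 8 weeks of age. RbpjΔEC mice also carried the inducible Cre of Cdh5CreERT2 (Cre +/-), driven by the endothelial Cdh5 promoter, and CTRL mice were littermates without Cre (Cre -/-). Organs were taken 12 weeks after induction, and the labels give an age of 21 weeks. The presence of Cre and the deletion of Rbpj cannot be told apart in this design.

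Calcium in an EC is kept low in the cytosol and high in the endoplasmic reticulum (ER). SERCA pumps, encoded by Atp2a genes, fill the ER store, and PMCA pumps, encoded by Atp2b genes, export calcium across the plasma membrane. Agonists that raise IP3 open IP3 receptors and empty the store, STIM1 senses the loss and opens ORAI1 channels in the plasma membrane, and TRPV4 admits calcium in response to stretch, osmotic change and lipid mediators. In ECs a rise of cytosolic calcium drives nitric oxide release and the hyperpolarization that relaxes the vessel wall.

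The libraries held between 39649171 and 47726850 counts on genes, so that 3 counts corresponded to between 0.0634 and 0.0749 CPM (counts relative to the library total, scaled with TMM factors). At least 1 count was seen for 33764 genes in CTRL 1 and for 25629 to 26785 genes in each other library. Rbpj had between 28.1 and 29.8 CPM in CTRL and between 26.1 and 29.6 CPM in RbpjΔEC. Its counts cover the whole gene and do not show the floxed part alone, so each library is assigned to its genotype here by label alone. For this mouse line the paper reports a check of recombination at the Rbpj locus and lower Hey1. In these libraries Hey1 had 16.7 to 22.6 CPM in CTRL and 8.92 to 14.6 CPM in RbpjΔEC (adjusted p of 0.0722 from edgeR). Over the 6 libraries the endothelial markers Pecam1 and Cdh5 had 1889 to 2324 CPM and 1456 to 1934 CPM. Of other cells, 8 tested mural markers (smooth muscle cells and pericytes) all had a negative log2 fold change, 3 of them past an adjusted p of 0.05 in edgeR and 7 in DESeq2, and the list summed to 82.1 to 106 CPM in CTRL and 32.8 to 53.9 CPM in RbpjΔEC. Summed markers of tubule cells were 283.5 to 423 CPM in CTRL and 104 to 387 CPM in RbpjΔEC, with 0 of 8 tested genes past the threshold and 3 at an unadjusted p under 0.05 by edgeR, and 1, Aqp2, called lower by DESeq2. Leukocyte markers summed to 2.24 to 8.03 CPM in CTRL and 1.20 to 3.12 CPM in RbpjΔEC, with Cd3e at 0 counts in all 6 libraries. Platelet markers summed to 4.90 to 8.98 CPM and 5.63 to 7.14 CPM, podocyte markers to 185 to 200.2 CPM and 179 to 217 CPM, and stroma markers to 2.94 to 4.24 CPM and 0.977 to 1.77 CPM. The 1 stroma marker tested, Pdgfra, was called lower in edgeR and in DESeq2, with a log2 fold change of -1.67. Of the 3 leukocyte, 4 platelet and 4 podocyte markers tested, 0 passed in edgeR (1, Ptprc, was lower at an unadjusted p under 0.05), and DESeq2 called Ptprc lower.

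Among the 10 genes, Atp2a3 was lower in RbpjΔEC, and the 9 others did not pass the threshold. With the threshold set at an adjusted p of 0.05 in edgeR's quasi-likelihood test over the 18438 genes, 1 of the 10 genes was lower and 0 were higher, beside 1.13% of all tested genes called in either direction, 0.559% called lower and 0.575% called higher. DESeq2 also called 1 of the 10, beside 5.12% of all tested genes, and 2 of the 10 had an unadjusted p under 0.05 in the edgeR test, beside 17.5% of all tested genes. Since these genes were picked on this contrast, nothing is read from those shares. The median log2 fold change of the 9 others was -0.03, beside 0.007 for all tested genes. In 2 of the 10 genes, Atp2a3 and Trpv4, every RbpjΔEC library lay below every CTRL library, as in 11.6% of all tested genes, where 23% were without overlap in either direction. Without any 1 of the 6 libraries Atp2a3 was still the gene called.

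**Figure D1:**
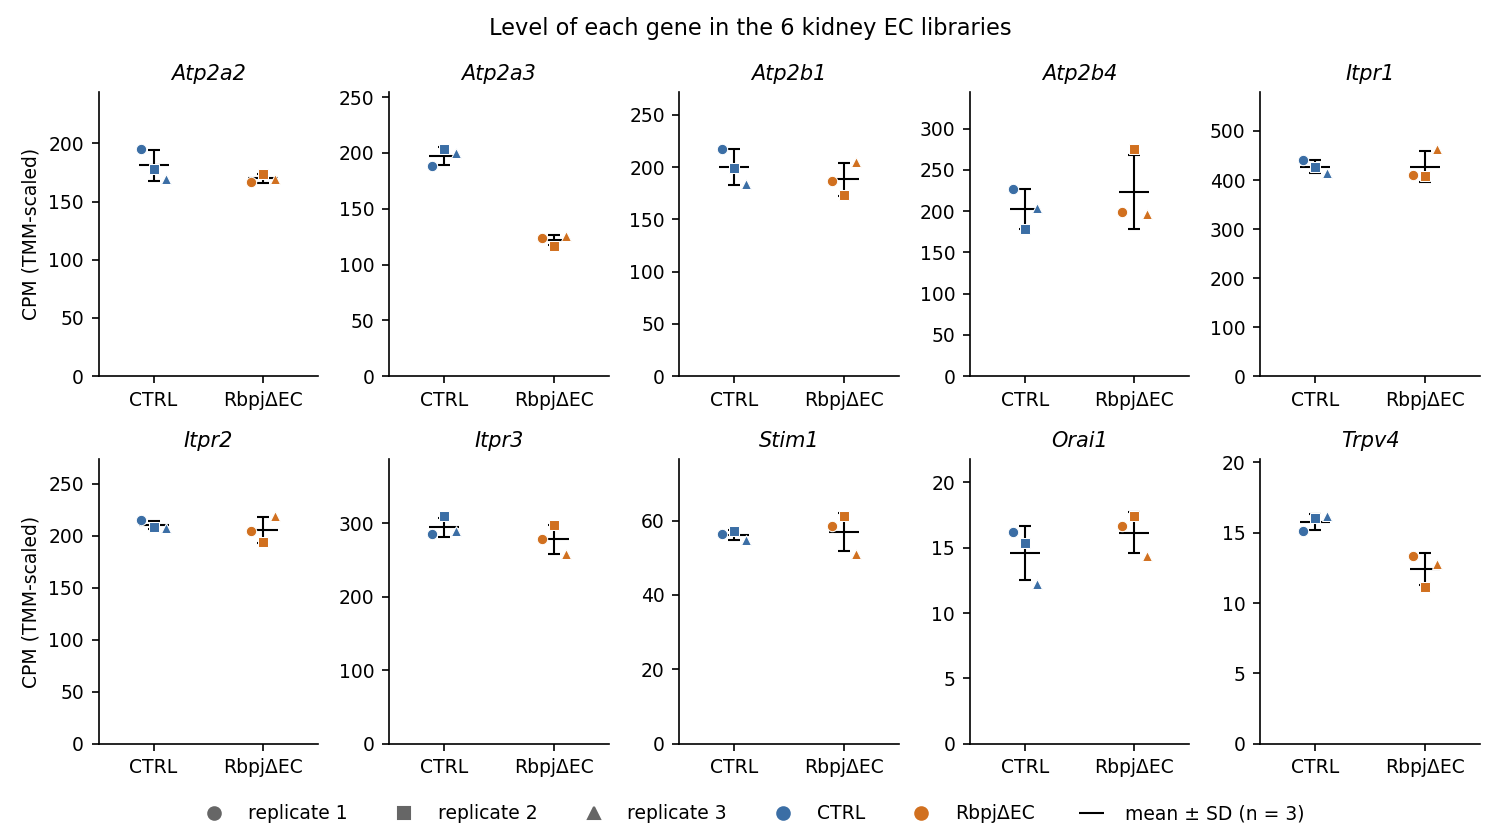
CPM of each of the 10 genes (vertical axis from 0, TMM-scaled) in CTRL and RbpjΔEC. Each symbol is 1 library, with the mean and SD of 3 in black. The groups are apart in Atp2a3 (188 to 204 CPM against 117 to 126 CPM) and Trpv4, and overlap in the other panels.

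Atp2a3 (ENSMUSG00000020788.15) encodes SERCA3, a pump of the ER found in ECs, platelets and lymphocytes that needs more calcium to be active than SERCA2 does. It lies on the forward strand of chromosome 11 of GRCm38 from 72961169 to 72993044. Atp2a3 had 188, 204 and 200.1 CPM in replicates 1, 2 and 3 of CTRL and 124, 117 and 126 CPM in those of RbpjΔEC, from raw counts between 4907 and 9640. The RbpjΔEC libraries were close to each other and all far below the lowest CTRL library. CTRL averaged 197 ± 8.08 CPM and RbpjΔEC 122 ± 4.58 CPM (SD, n = 3 each). This was 61.9% of the CTRL level (95% interval 55.9% to 68.5%), a log2 fold change of -0.69 (standard error 0.0671), and 939 of the tested genes had a more negative one. In bulk samples, fewer cells of a type and less RNA per cell cannot be told apart. A list of arterial EC markers had a negative log2 fold change in 7 of 9 tested genes, with Jag1 past the threshold (at an unadjusted p under 0.05 by edgeR, 6 were lower and 1 higher), and summed to 2327 to 2524 CPM in CTRL and 2102 to 2237 CPM in RbpjΔEC. DESeq2 called Gja4, Gja5, Hey1, Jag1 and Sema3g of this list. The median log2 fold change of the arterial list was -0.51, with Gja4 at -0.68, Hey1 at -0.76 and Gja5 at -1.34, beside -0.69 for Atp2a3, while the most abundant of the list, Efnb2, Sema3g and Dll4, had -0.16, -0.51 and 0.22. Pan-endothelial markers had a negative log2 fold change in 6 of 8 tested genes, with 0 past the threshold (at an unadjusted p under 0.05 by edgeR, 3 were lower and 1 higher, and DESeq2 called Kdr, Emcn and Flt1 lower), and summed to 18350 to 19980 CPM in CTRL and 16610 to 17030 CPM in RbpjΔEC. Relative to the summed arterial markers of its own library, a sum in which Efnb2 weighs most, Atp2a3 was lower by 0.51 on the log2 scale in RbpjΔEC, and relative to the pan-endothelial markers by 0.49, each without overlap between the groups. The part of other cell types in the fall of Atp2a3 was not tested.

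The promoters of Atp2a3 and Atp2b4 are shown because the first gene was the one called and the second was the one gene of the set with a short Rbpj motif. RefSeq promoter windows on GRCm38.p6, from 250 bases before to 50 bases after the start, were at hand for 8 of the 10 genes, those of Atp2a2 and Itpr1 excepted. Atp2a3 is chr11:72960919-72961218 on the forward strand and Atp2b4 is chr1:133753698-133753997 on the reverse strand, both printed 5′ to 3′. Capitals mark the Rbpj motif TGGGAA or the GC box GGGCGG on either strand.
Atp2a3: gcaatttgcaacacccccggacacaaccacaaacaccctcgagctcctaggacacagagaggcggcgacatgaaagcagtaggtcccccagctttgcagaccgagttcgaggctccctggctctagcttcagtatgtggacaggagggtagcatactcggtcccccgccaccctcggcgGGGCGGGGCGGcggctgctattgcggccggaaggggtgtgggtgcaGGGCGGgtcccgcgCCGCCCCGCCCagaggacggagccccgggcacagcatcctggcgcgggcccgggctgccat
Atp2b4: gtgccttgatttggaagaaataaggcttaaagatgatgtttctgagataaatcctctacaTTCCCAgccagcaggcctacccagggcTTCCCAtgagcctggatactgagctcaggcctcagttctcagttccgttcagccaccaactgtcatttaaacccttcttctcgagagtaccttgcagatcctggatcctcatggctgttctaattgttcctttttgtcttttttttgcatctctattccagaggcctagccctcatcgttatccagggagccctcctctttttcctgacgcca
The Rbpj core GTGGGAA, which contains TGGGAA, was found on either strand in 0 of the 8 genes' windows, beside 6.38% of all 32851 windows. TGGGAA was found in 1 gene, Atp2b4, at 190 and 163 bases before its start on the reverse complement, beside 25.6% of all windows. The window of Atp2a3 held 5 GC boxes, the binding letters of Sp-family factors and a common element of promoters without a TATA box, some of them overlapping, and 7 of the 8 genes had at least 1, beside 35.7% of all windows. The GC box was searched after the sequence was seen. GC content was 47.7% in Atp2b4 and 68.3% in Atp2a3, and between 70.3% and 79.3% in the windows of the other genes. No match says only that these letters are not in this window. The RefSeq start of Atp2b4 lies inside the gene as GENCODE draws it.

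The other SERCA gene, Atp2a2 (ENSMUSG00000029467.15, chromosome 5, 122453513 to 122502225), encodes SERCA2, the pump that nearly all cells use. It had 195, 178 and 169.6 CPM in CTRL and 167, 174 and 169 CPM in RbpjΔEC. The groups overlapped, with the highest value in CTRL 1. The log2 fold change of Atp2a2 was -0.09 (95% interval -0.24 to 0.065), beside -0.69 (95% interval -0.84 to -0.545) for Atp2a3. Per kb of exonic length, Atp2a3 made up 52.6%, 56.8% and 57.6% of the SERCA reads in CTRL and 46.1%, 43.6% and 46.1% in RbpjΔEC. Atp2a3 thus held the larger share of the pair in each CTRL library and the smaller share in each RbpjΔEC library. Without the length scaling its share was 52.2% ± 2.72 in CTRL and 41.8% ± 1.397 in RbpjΔEC (SD, n = 3 each), and CTRL 1 alone then lay under an even split, at 49.1%. Summed over both SERCA genes, the level per kb was 67.1 ± 1.18 CPM in CTRL and 51.1 ± 0.483 CPM in RbpjΔEC (SD, n = 3 each), 76.1% of CTRL.

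The PMCA genes Atp2b1 and Atp2b4 did not pass the threshold in either direction. Atp2b1 (ENSMUSG00000019943.10, chromosome 10, 98914406 to 99026143), which encodes the widely expressed PMCA1, had 217, 199.5 and 183 CPM in CTRL and 187, 173 and 205 CPM in RbpjΔEC. Atp2b4 (ENSMUSG00000026463.17, chromosome 1, 133699457 to 133801041), which encodes PMCA4, had 226, 178 and 204 CPM in CTRL and 199, 275.5 and 196 CPM in RbpjΔEC. Both genes overlapped between the groups, and the high value of Atp2b4 came from RbpjΔEC 2 alone. Their log2 fold changes were -0.09 (95% interval -0.27 to 0.096) for Atp2b1 and 0.14 (95% interval -0.19 to 0.48) for Atp2b4, which was -0.036 without RbpjΔEC 2. Summed over both PMCA genes, the level per kb was 29.7 ± 2.70 CPM in CTRL and 30.6 ± 2.845 CPM in RbpjΔEC (SD, n = 3 each).

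**Figure D2:**
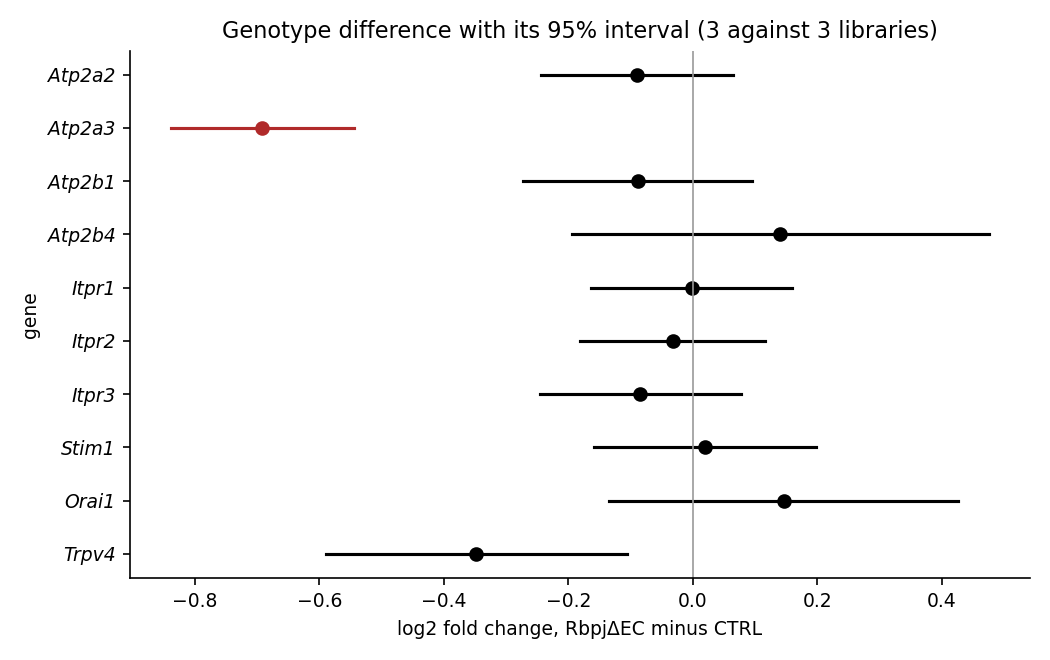
Log2 fold change of RbpjΔEC minus CTRL (horizontal axis) for each of the 10 genes, with bars for the 95% interval from edgeR's quasi-likelihood fit on 3 against 3 libraries. Atp2a3 (red) sits at -0.69, Trpv4 at -0.35, and the intervals of the 8 other genes include 0.

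The ratio of a pump pair within a library does not depend on depth or scaling. The log2 ratio of Atp2a3 to Atp2a2 was -0.05, 0.19 and 0.24 in the CTRL libraries and -0.43, -0.57 and -0.43 in the RbpjΔEC libraries. The ratio to Atp2b1 was -0.21, 0.03 and 0.13 in CTRL and -0.59, -0.56 and -0.71 in RbpjΔEC. The ratio to Atp2b4 was -0.27, 0.19 and -0.03 in CTRL and -0.69, -1.24 and -0.64 in RbpjΔEC. Every RbpjΔEC library lay below every CTRL library in all 3 ratios, and CTRL 1 was the lowest CTRL library in each. The group means differed by -0.60, -0.60 and -0.82 on the log2 scale for Atp2a2, Atp2b1 and Atp2b4, with an SD within a group between 0.0747 and 0.331. The ratios among the other pumps overlapped between the groups, and their means differed by 0.001 for Atp2a2 over Atp2b1 and by -0.22 both for Atp2a2 over Atp2b4 and for Atp2b1 over Atp2b4. As the contrast of Atp2a3 with the other pumps was what the genes were chosen for, these ratios are a description.

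**Figure D3:**
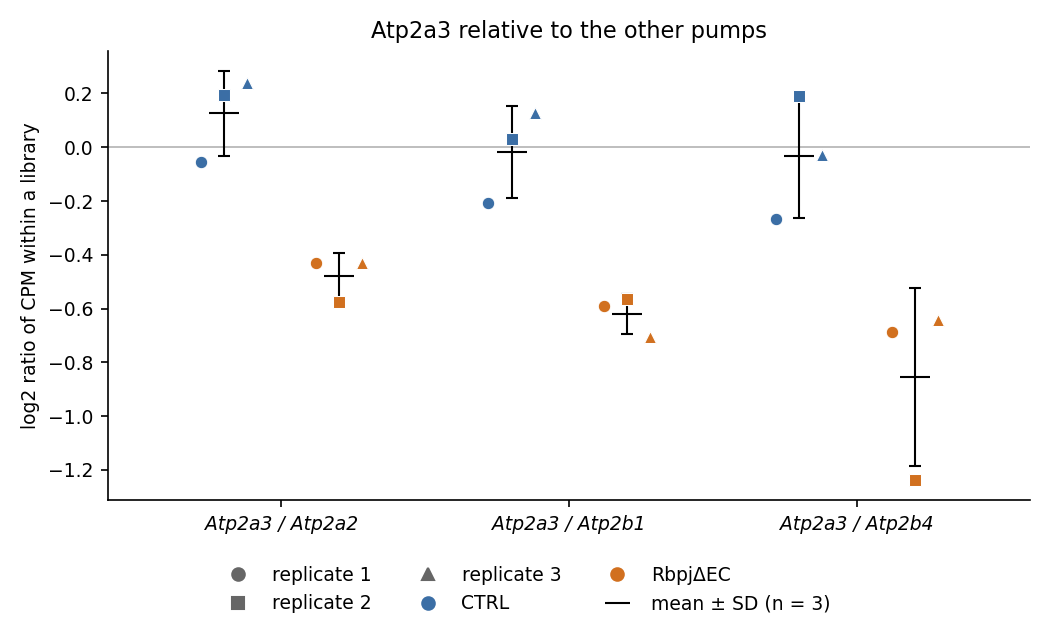
Log2 ratio of the CPM of Atp2a3 to that of Atp2a2, Atp2b1 and Atp2b4 within each library (vertical axis), with the mean and SD of 3 libraries in black. RbpjΔEC libraries sit below CTRL libraries in each ratio, and RbpjΔEC 2 is lowest against Atp2b4.

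The IP3 receptors, tetrameric channels of the ER membrane, did not pass the threshold in either direction. Itpr1 (ENSMUSG00000030102.11, chromosome 6, 108213096 to 108551109) had 442, 426 and 415 CPM in CTRL and 410.1, 407 and 464 CPM in RbpjΔEC. Itpr2 (ENSMUSG00000030287.15, chromosome 6, 146108299 to 146502223) had 215, 209 and 207 CPM in CTRL and 204, 194 and 219 CPM in RbpjΔEC. Both overlapped between the groups, and RbpjΔEC 3 gave the highest value of each. Itpr3 (ENSMUSG00000042644.9, chromosome 17, 27057304 to 27122223) had 285, 309.5 and 290 CPM in CTRL and 278, 298 and 258 CPM in RbpjΔEC, with RbpjΔEC 3 here the lowest. The log2 fold changes were -0.001 for Itpr1 (95% interval -0.16 to 0.16), -0.03 for Itpr2 (95% interval -0.18 to 0.12) and -0.08 for Itpr3 (95% interval -0.25 to 0.077). The sign of Itpr1 and of Itpr2 turned when counts were scaled to library size alone. Per kb of exonic length, Itpr3 held 46.6% ± 1.44 of the receptor reads in CTRL and 45.3% ± 3.38 in RbpjΔEC, Itpr1 33.2% ± 0.987 and 34.25% ± 2.28, and Itpr2 20.2% ± 0.496 and 20.4% ± 1.18 (SD, n = 3 each). Each share overlapped between the groups. The summed receptor level per kb was 70.2 ± 1.44 CPM in CTRL and 68.0 ± 0.859 CPM in RbpjΔEC (SD, n = 3 each), 96.9% of CTRL, with the highest RbpjΔEC library (68.7) just under the lowest CTRL library (68.8). The order of the receptors depended on the length used. Per kb of the longest transcript, CTRL had 43.3 ± 1.37 CPM for Itpr1, 32.8 ± 1.44 for Itpr3 and 18.0 ± 0.341 for Itpr2 (SD, n = 3 each).

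Stim1 and Orai1, of store-operated entry, had lower levels than the pumps and IP3 receptors. Stim1 (ENSMUSG00000030987.5, chromosome 7, 102267806 to 102437319), the sensor in the ER membrane, had 56.3, 57.3 and 54.8 CPM in CTRL and 58.5, 61.15 and 51.1 CPM in RbpjΔEC. Orai1 (ENSMUSG00000049686.14, chromosome 5, 123015074 to 123030456), the pore in the plasma membrane, had 16.2, 15.4 and 12.2 CPM in CTRL and 16.7, 17.4 and 14.4 CPM in RbpjΔEC. The values of both genes overlapped between the groups. On the log2 scale the difference was 0.02 for Stim1 (95% interval -0.16 to 0.20) and 0.15 for Orai1 (95% interval -0.135 to 0.43). Within their families, Stim1 held 15.4% ± 0.741 (SD, n = 3) of the STIM reads per kb in CTRL, the rest being Stim2, and Orai1 held 39.9% ± 3.975 (SD, n = 3) of the Orai reads per kb, below Orai3 with 55.9% ± 3.96 (SD, n = 3). In RbpjΔEC the shares were 15.1% ± 1.23, 41.75% ± 0.936 and 53.2% ± 0.744 (SD, n = 3 each), and the groups overlapped. These shares are per kb of exonic length and depend on it. In CTRL, Stim1 had 5.41 CPM per kb of exonic length and 12.9 CPM per kb of its longest transcript.

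Trpv4 (ENSMUSG00000014158.12, chromosome 5, 114622152 to 114658421), which encodes an entry channel of endothelium and of tubule epithelium, had 15.1, 16.0 and 16.2 CPM in CTRL and 13.3, 11.1 and 12.8 CPM in RbpjΔEC. All RbpjΔEC libraries lay below all CTRL libraries. The level of Trpv4 in RbpjΔEC was 78.6% of that in CTRL (95% interval 66.5% to 92.9%, before any adjustment), from means of 12.4 ± 1.15 CPM and 15.8 ± 0.561 CPM (SD, n = 3 each). It did not pass the threshold after adjustment over all tested genes in edgeR or in DESeq2. Its log2 fold change was -0.35 (standard error 0.111) and lay between -0.40 and -0.27 without 1 library in turn. Mural markers summed to less in every RbpjΔEC library than in any CTRL library, and 5 of 8 tubule markers had a negative log2 fold change. The 3 others, the proximal tubule genes Lrp2, Slc34a1 and Cubn, had 1.27, 1.28 and 0.98, with the highest value of each in RbpjΔEC 3, whose tubule sum (387 CPM) lay among the CTRL values. The part of these cells in the level of Trpv4 was not tested.

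Levels can be compared between genes only per length. Per kb of exonic length in CTRL, Atp2a3 was highest with 37.4 ± 1.53 CPM per kb (SD, n = 3), followed by Itpr3 with 32.7 ± 1.43, Atp2a2 with 29.8 ± 2.15, Itpr1 with 23.3 ± 0.739, Atp2b4 with 16.6 ± 1.96, Itpr2 with 14.2 ± 0.269, Atp2b1 with 13.2 ± 1.12, Orai1 with 6.36 ± 0.914, Stim1 with 5.41 ± 0.122 and Trpv4 with 3.87 ± 0.138. Neighbours whose CTRL values overlapped were Itpr3 with Atp2a2, Itpr2 with Atp2b1, and Orai1 with Stim1. In RbpjΔEC, Atp2a3 had 23.1 ± 0.868 CPM per kb (SD, n = 3) and stood at rank 4, overlapping with Itpr1 at rank 3, and the order of the 9 others was that of CTRL. The order depended on the length used, the first rank in CTRL included. Per kb of the longest transcript, Itpr1 had 43.3 ± 1.37 CPM per kb and Atp2a3 42.8 ± 1.75 CPM per kb (SD, n = 3 each), and Atp2a3 was again at rank 4 in RbpjΔEC. By that length in CTRL, Atp2b1 (28.1) stood above Itpr2 (18.0) and Atp2b4 (17.3), and Stim1 (12.9) above Orai1 (7.78). In RbpjΔEC Itpr2 and Atp2b4 changed places, at ranks 7 and 6.

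**Figure D4:**
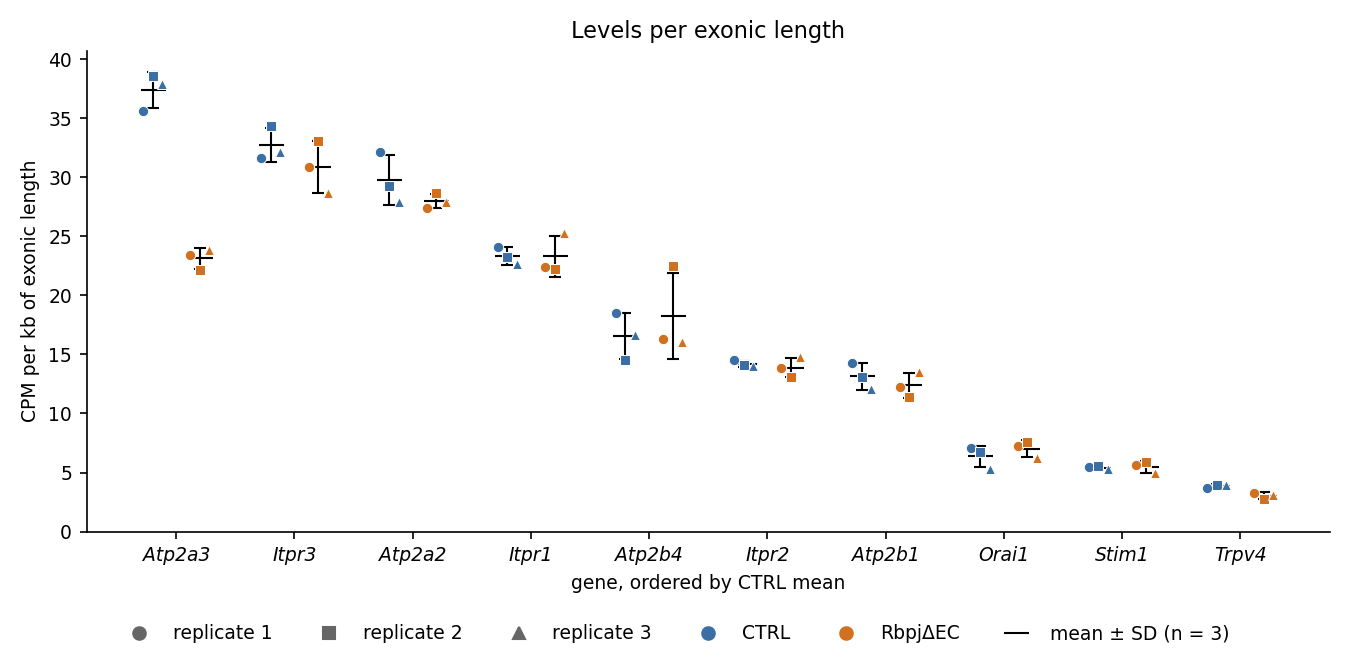
CPM per kb of exonic length (vertical axis from 0) of the 10 genes, ordered by the CTRL mean, with 1 symbol per library and the mean and SD of 3 in black. Atp2a3 stands first in CTRL at 37.4 and at 23.1 in RbpjΔEC, below Itpr3, Atp2a2 and Itpr1.

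The replicates of a group were close to each other. The larger of the coefficients of variation of the groups had a median of 7.98% over the 10 genes, beside 9.01% over the 8789 tested genes with a mean of at least 10 CPM. It was lowest for Atp2a3, at 4.09%, and highest for Atp2b4, at 20.1%, where RbpjΔEC 2 stood apart.

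To place these genes in their pathway, 104 other genes of calcium handling in 10 lists were compared in the same fit. Of the 103 in the table, 86 were tested, and 3 were called lower and 1 higher in RbpjΔEC, 4.65% of those tested beside 1.13% of all tested genes. At an unadjusted p under 0.05 by edgeR, 25 were lower and 4 higher, where 8.62% of all tested genes were lower and 8.88% higher. The median log2 fold change of the 86 genes was -0.10, beside 0.007 for all tested genes, and 62 were negative. The number called changed with single libraries, as did the share of all tested genes: it was 0 without CTRL 1, CTRL 3 or RbpjΔEC 1 (0.284%, 0.125% and 0.11% of all tested genes), 1 without RbpjΔEC 2 (0.25%), 7 without CTRL 2 (3.65%) and 8 without RbpjΔEC 3 (2.73%). The log2 fold changes without 1 library lay between -1.30 and -0.94 for Slc8a1, between -0.84 and -0.685 for Atp2b2 and between -0.42 and -0.32 for Pdia3. DESeq2 called 13 of them, 12 lower and 1 higher, where it called 5.12% of all tested genes. The 13 held the 4 genes called by edgeR and, each of them lower, Atp2c1, Hsp90b1, Pln, Tmco1, Plcg2 and Kcnn4, among others.

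Among the other genes whose products export calcium across the plasma membrane, an exchanger and a pump fell. Slc8a1 (chromosome 17, 81373105 to 81738377), which encodes the sodium-calcium exchanger NCX1, had 29.1, 30.4 and 28.5 CPM in CTRL and 12.85, 10.99 and 17.8 CPM in RbpjΔEC. Atp2b2 (chromosome 6, 113743831 to 114042613), which encodes PMCA2, had 12.7, 12.1 and 11.2 CPM in CTRL and 8.12, 6.82 and 6.56 CPM in RbpjΔEC. Neither gene overlapped between the groups. Slc8a1 had a log2 fold change of -1.08 with a standard error of 0.153, and a Benjamini-Hochberg adjusted p of 0.0150 in the quasi-likelihood test of edgeR. Leaving out 1 library in turn moved the edgeR adjusted p of Slc8a1 between 0.000284 and 0.0866, and the call was lost without CTRL 1, CTRL 3 or RbpjΔEC 1. Atp2b2 had a log2 fold change of -0.74 with a standard error of 0.136, and an edgeR adjusted p of 0.0281, which lay between 0.0318 and 0.111 when 1 library was left out. Its call was lost without CTRL 1, CTRL 3, RbpjΔEC 1 or RbpjΔEC 2. Smooth muscle and distal tubule cells also express NCX1. The distal tubule marker Slc12a3 had between 62.5 and 139.9 CPM in CTRL and between 11.5 and 64.4 CPM in RbpjΔEC, with overlap, and Calb1 between 8.14 and 9.59 CPM and between 0.858 and 4.99 CPM, without overlap. Neither passed the edgeR threshold. The smooth muscle marker Myh11 had 29.7 ± 4.34 CPM (SD, n = 3) in CTRL and between 9.84 and 16.2 CPM in RbpjΔEC. Their part in the fall of Slc8a1 was not tested. Among exchangers 1 of 3 tested genes was called, and among other pumps 1 of 2. Atp2c1, the calcium and manganese pump of the Golgi, had 163 ± 1.86 CPM in CTRL and 134 ± 8.12 CPM in RbpjΔEC (SD, n = 3 each), or -0.28 on the log2 scale with an edgeR adjusted p of 0.0706.

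In the ER, Pdia3 (chromosome 2, 121413775 to 121438687), a disulfide isomerase that works with the calcium-binding chaperones calreticulin and calnexin, had 384.5, 356 and 409 CPM in CTRL and fell to 289, 316 and 288 CPM in RbpjΔEC. The groups did not overlap, and Pdia3 was the 1 gene called of 11 tested in its list. On the log2 scale this was -0.36 with a standard error of 0.0755 and an edgeR adjusted p of 0.0459. The call was lost with scaling to library size alone (adjusted p = 0.0612 from edgeR) and without any library but CTRL 2, the adjusted p from edgeR lying between 0.0188 and 0.198 without 1 library in turn. Hsp90b1, an abundant ER chaperone, had 789 ± 22.4 CPM in CTRL and 648 ± 13.5 CPM in RbpjΔEC (SD, n = 3 each), or -0.28 on the log2 scale with an edgeR adjusted p of 0.0668. Pln, which encodes the SERCA inhibitor phospholamban of heart and smooth muscle, was the 1 tested SERCA regulator, with 1.10 ± 0.284 CPM in CTRL and 0.308 ± 0.0681 CPM in RbpjΔEC (SD, n = 3 each) and an adjusted p of 0.0602 from edgeR. It had between 10 and 57 counts in a library. Mural markers summed to 82.1 to 106 CPM in CTRL and 32.8 to 53.9 CPM in RbpjΔEC. The part of mural cells in the level of Pln was not tested. Of 6 tested genes of other release and leak from the ER, 0 passed and 2 were lower at an unadjusted p under 0.05 by edgeR. Tmco1, a calcium leak channel, had a log2 fold change of -0.36 and Itprid2, which binds IP3 receptors, of -0.11.

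Of the other genes of store-operated entry, Stim2, the second ER sensor, had 153.5 ± 10.5 CPM in CTRL and 159 ± 4.085 CPM in RbpjΔEC (SD, n = 3 each), and its log2 fold change of 0.05 had a 95% interval of -0.105 to 0.20.

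In the lists of mitochondrial calcium, other entry channels, IP3 production and calcium sensing, 0 genes passed the edgeR threshold. Mitochondrial calcium uptake and exchange had 9 tested genes, and at an unadjusted p under 0.05 by edgeR 2 were lower and 1 higher. Its most abundant gene Letm1 had a log2 fold change of -0.23, and Mcub, the inhibitory subunit of the uniporter, one of -0.96 from 1.78 ± 0.157 CPM in CTRL to 0.914 ± 0.183 CPM in RbpjΔEC (SD, n = 3 each). Other entry channels had 13 tested genes, and at an unadjusted p under 0.05 by edgeR 2 were lower and 0 higher, among them the low-level Cacna1h (log2 fold change -2.15, all libraries at or under 1.12 CPM). Pkd1, the most abundant of the list, had a log2 fold change of -0.075 (95% interval -0.241 to 0.092). IP3 production had 10 tested genes, and at an unadjusted p under 0.05 by edgeR 4 were lower and 2 higher, among them the phospholipases Plcg1 (0.16) and Plcg2 (-0.33). Calcium sensing had 20 tested genes, and at an unadjusted p under 0.05 by edgeR 3 were lower and 0 higher, among them the calcium-activated potassium channel Kcnn4 (-1.44), which had 1.94 ± 0.660 CPM in CTRL and 0.713 ± 0.319 CPM in RbpjΔEC (SD, n = 3 each).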

How the data were processed

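Per the labels, the paper's methods and the submitters' processing notes, the authors prepared stranded total RNA libraries, trimmed reads with Trim Galore 0.6.4, aligned them with STAR 2.6.1d to GRCm38.p6 with the GENCODE M25 annotation, counted them with featureCounts of Subread 1.6.4 and deposited whole counts per gene without normalization. How reads shared by paralogs were counted is not given in the sources used here. These counts were turned into TMM-scaled CPM and tested with edgeR 4.0.16 under R 4.3.3 (filterByExpr, robust glmQLFit, glmQLFTest, 3 libraries against 3, Benjamini-Hochberg adjustment over 18438 tested genes, threshold 0.05) and checked on simulated data. Standard errors came from the log2 fold change and its F, and 95% intervals from the fit's degrees of freedom. DESeq2 1.42.0, other scalings and filters, a replicate block and each library left out were alternatives. Exonic lengths and gene positions are those of GENCODE M21 (GRCm38), where 55141 of the 55401 identifiers were found, and can differ from M25 for single genes. The members and lists were chosen with earlier results of these data known. Genes named besides the 10 were, per list, the most abundant, that with the smallest p and any past the threshold, with markers and overlapping genes, and some of these are not reported here. Floors of 3 counts cover counting error only.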

Additional observations from a re-analysis of the deposited data

How the results depend on the processing

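Of the 10 genes, 1 was called under each of the 6 other settings and without each library in turn, and it was Atp2a3 each time, with a log2 fold change between -0.73 and -0.66 without 1 library. The differences of the log2 ratios of Atp2a3 to Atp2a2, Atp2b1 and Atp2b4 stayed negative, between -0.69 and -0.55, -0.70 and -0.53, and -0.94 and -0.63 without 1 library. Signs near 0 turned: Itpr1 was 0.041 with library size only, 0.006 with no low-count filter and 0.003 with a filter on a mean of 1 CPM, Itpr2 was 0.011 with library size only, and without 1 library in turn Itpr1 lay between -0.064 and 0.032, Itpr2 between -0.077 and 0.010, Stim1 between -0.034 and 0.092 and Atp2b4 between -0.036 and 0.227. Of the other calcium handling genes, 4 were called, 13 with no low-count filter, 13 with DESeq2, and 0 to 8 without 1 library in turn. Over all genes 209 were called, 1246 with no low-count filter, 944 with DESeq2 and 21 to 700 without 1 library in turn. Library size only gave 159 higher and 82 lower genes in place of 106 and 103. The rank of Atp2a3 in CTRL was 6 with no length scaling and 2 with the longest transcript. The motif TGGGAA gave 1 gene in place of 0. The cause of the changes in sign and in the number of genes called was not tested. The replicate numbers did not pair the samples (correlations of 0.060, -0.042 and 0.016 between libraries of the same number): with a replicate block, 1 of the 10 genes and 4 of the other calcium genes were called, with Plce1 in place of Pdia3 (adjusted p of Pdia3 0.0517 from edgeR), and 344 over all genes. Depth set a floor of 3 counts at 0.0634 to 0.0749 CPM.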

Other observations

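Several calcium genes had too few counts to be tested. Atp2a1, the SERCA of fast skeletal muscle, had 68 counts over all 6 libraries and at most 23 in any of them, Atp2b3 had 4 and Atp2c2 had 6. The SERCA-binding peptide genes Sln and Strit1 had 0 counts, and Mrln and Smim6 had 13 and 25. The ryanodine receptor genes Ryr1, Ryr2 and Ryr3, release channels of muscle and brain named here after their values were seen, had 37, 40 and 36 counts in CTRL 1 and at most 14, 6 and 8 in any other library. CTRL 1 was also the library with counts on the largest number of genes. Of the 3, Ryr1 passed the filter on low counts.

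In the annotation, 16 genes overlapped 7 of the 10 described genes, and Atp2a3, Atp2b1 and Trpv4 were not overlapped. Of these 16, 10 were tested and 7 shared exonic bases, at most 233 (Itpr3os with Itpr3). The most abundant, Gm43359 within Atp2a2, had a mean of 4.34 CPM, and 0 passed the threshold in edgeR's quasi-likelihood test.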
